A study of Mus musculus with 9 samples.

Results

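Messenger RNA of 10 genes for epidermal growth factor (EGF) ligands, neuregulins and ErbB receptors was followed in the striatum of R6/2 and wild-type mice. The ligands of the EGF receptor were Hbegf, Tgfa, Btc and Egf, the neuregulins were Nrg1 and Nrg3, and the receptors were Egfr, Erbb2, Erbb3 and Erbb4. Every probe set of the array that the platform annotation assigned to exactly 1 of these genes was used, which gave 22 of 45101 probe sets and 10 of 18193 named genes. The main probe set of a gene was selected on brightness, as its highest mean level across both genotypes. Each of the 9 female mice, on a C57Bl/6 and CBA background and 12 weeks old, was 1 array. The wild-type mice are named wildtype_46, wildtype_47, wildtype_49 and wildtype_66, and the R6/2 mice are R62_86 and R62_95, followed by R62_105, then R62_107 and last R62_109. Values per mouse are given in these orders. The 4 wild-type mice and R62_86 were 85 days old, whereas the other 4 R6/2 mice were 83 days old. R6/2 mice carry a transgene with exon 1 of human HTT and a long CAG repeat, and they model Huntington disease.

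ErbB receptors are receptor tyrosine kinases that signal as pairs. EGF-type ligands are made as membrane-anchored precursors and are released by proteases. Heparin-binding EGF-like growth factor, transforming growth factor alpha and betacellulin bind the EGF receptor, the first of these and betacellulin also bind ErbB4, and neuregulins bind ErbB3 or ErbB4. ErbB2 has no ligand of its own and serves as a partner, and ErbB3 has little kinase activity. In the brain, ErbB4 is known from inhibitory interneurons, ErbB3 from the oligodendrocyte lineage and the EGF receptor from progenitors and glia.

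Values are log2 expression, a difference is R6/2 minus wild-type on that scale, and a ratio is the R6/2 level over the wild-type level. Genes were compared with limma, and p-values were adjusted by the Benjamini-Hochberg method over all genes with a threshold of 0.05. Of the 10 genes, the ligand genes Hbegf and Tgfa fell and 0 rose. At an unadjusted limma p under 0.05, 3 were lower and 1 was higher. Across all genes 16.9% passed, 7.57% lower and 9.28% higher, so that 2 of 10 lies near the share of all genes. The median difference of the 10 genes was -0.13, against -0.02 over all genes. The family was chosen by a reading of earlier results of these data, and its count is a description. Hbegf and Tgfa are among 150 genes that were lower by at least 1.

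**Figure D1:**
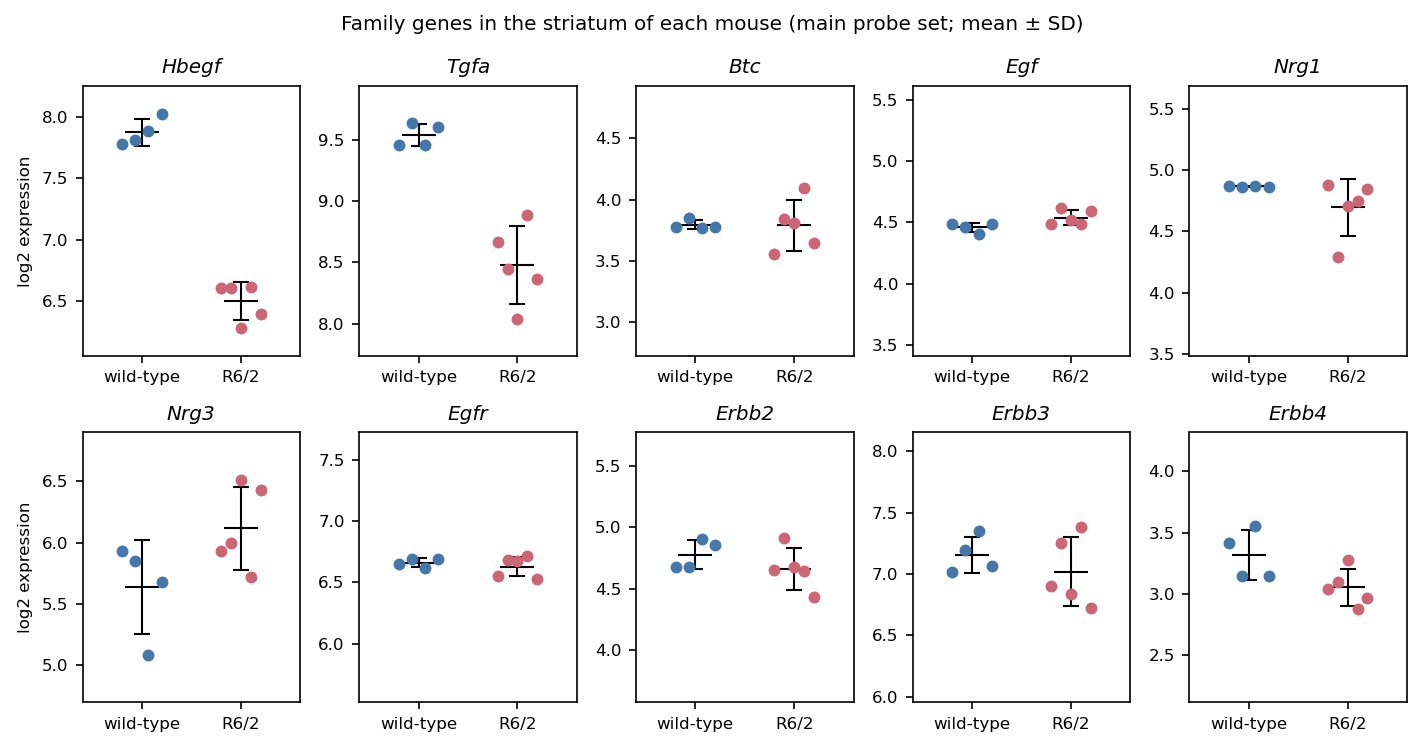
Log2 expression of the main probe set of each of the 10 genes (vertical axes, every panel spanning the same log2 range) in 4 wild-type and 5 R6/2 mice, with 1 point per mouse and bars for the mean and SD. The groups are apart for Hbegf (7.78 to 8.03 against 6.28 to 6.62) and Tgfa (9.46 to 9.63 against 8.04 to 8.89) and overlap for the other 8 genes.

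Hbegf encodes the heparin-binding ligand of the EGF receptor and ErbB4. It was 7.78, 7.81, 7.89 and 8.03 in the wild-type mice and 6.61, 6.61, 6.28, 6.62 and 6.40 in the R6/2 mice. All R6/2 mice lay below all wild-type mice, a separation that 17.3% of all genes showed, 8.09% with R6/2 below and 9.18% with R6/2 above. Wild-type mice averaged 7.88 ± 0.11 (SD, n = 4) and the transgenic mice 6.50 ± 0.16 (SD, n = 5). The difference was -1.38 ± 0.09 (SE), with a 95% confidence interval from -1.57 to -1.18 and a ratio of 0.386 (limma adjusted p 3.19e-05). The second probe set, 1418349_at, ran from 6.90 to 7.50 in wild-type and from 5.93 to 6.23 in R6/2 mice. It fell by 1.04 ± 0.12 (limma adjusted p over all probe sets 0.00101). The fall was thus seen with both probe sets and without any overlap of the genotypes in either.

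Tgfa encodes transforming growth factor alpha, which binds the EGF receptor. Its main probe set, 1421943_at, was 9.46, 9.63, 9.46 and 9.60 in the wild-type mice and 8.67, 8.44, 8.04, 8.89 and 8.37 in the R6/2 mice. R62_105 was lowest for Tgfa as for Hbegf, and R6/2 mice spread more widely (SD 0.32) than wild-type mice (SD 0.09). The difference was -1.06 ± 0.14 (SE; interval -1.37 to -0.74) and the ratio 0.481 (limma adjusted p 0.000941). With age as a covariate, the genotype difference rests on R62_86 alone, the only R6/2 mouse that shares the wild-type age. It was -0.87 for Tgfa and -1.27 for Hbegf. The mean of the 3 Tgfa probe sets gave a smaller fall of 0.63 ± 0.10 (limma adjusted p 0.00282).

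The 3 probe sets of Tgfa gave differences of unequal size. Their brightness was unequal too: 1421943_at was brighter than 89.7% of all probe sets, 1421942_s_at than 55.5% and 1450421_at than 52.4%. The part of brightness in the unequal differences was not tested. Probe set 1421942_s_at gave a difference of -0.49 ± 0.14 (limma adjusted p over all probe sets 0.05004, just above the threshold) and 1450421_at fell by 0.34 ± 0.09 (limma adjusted p 0.0438). In each of the 3, every R6/2 mouse lay below every wild-type mouse, although for 1450421_at only narrowly, with 5.71 as the highest R6/2 and 5.73 as the lowest wild-type value. Of all probe sets, 13.4% had groups that did not overlap. The within-array difference between 1421943_at and 1450421_at changed by -0.72 from wild-type to R6/2 mice (exact permutation test, two-sided, p 0.00794, the smallest it can give, and 0.0476 adjusted over 12 pairs of probe sets). The shift against 1421942_s_at was -0.57 (exact permutation p 0.0476, adjusted 0.143), and that between the Hbegf probe sets was -0.33 (exact permutation p 0.0317, adjusted 0.127). These last 2 pairs did not pass after adjustment. All 3 Tgfa probe sets carry the same transcript accession, and which part of the transcript each reads was not analysed here.

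The promoter of Tgfa is shown because Tgfa is the fallen ligand gene for which a sequence was used, and that of Egfr because its protein is the receptor of that ligand and 1 of its probe sets fell. Both are the 250 bases before a RefSeq transcript start in GRCm38.p6, read 5′ to 3′ on the plus strand. Capitals mark the Sp1 box, GGGCGG on either strand. The window of Tgfa lies at chr6:86194972-86195221 and that of Egfr at chr11:16751953-16752202.
Tgfa: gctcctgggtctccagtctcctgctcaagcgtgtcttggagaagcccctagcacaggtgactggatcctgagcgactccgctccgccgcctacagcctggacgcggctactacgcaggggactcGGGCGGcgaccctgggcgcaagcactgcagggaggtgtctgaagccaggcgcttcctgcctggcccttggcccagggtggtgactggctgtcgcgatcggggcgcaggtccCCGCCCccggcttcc
Egfr: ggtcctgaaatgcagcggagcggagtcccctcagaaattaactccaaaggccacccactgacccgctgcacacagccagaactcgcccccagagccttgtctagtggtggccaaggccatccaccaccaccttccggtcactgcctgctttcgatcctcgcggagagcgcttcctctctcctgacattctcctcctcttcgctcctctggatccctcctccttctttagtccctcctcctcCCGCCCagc
The Tgfa window holds 2 Sp1 boxes, starting at positions -126 (sense) and -15 (antisense) from the transcript start, and 69.2% of its bases are G or C. The Egfr window holds 1 box, starting at -9 (antisense), with 60.8% G or C, beside a median of 52.4% over all windows. A box was present in 32.7% of 32851 windows of this length. Of 8 windows of 7 family genes searched, those of Tgfa and Egfr alone held one. No window of Hbegf was searched, so the counts over these 8 do not cover it. The cyclic AMP response element TGACGTCA (1.55% of all windows), the AP-1 site TGAGTCA (4.46%) and the Egr sites GCGTGGGCG or GCGGGGGCG (3.06%), each sought on both strands, were in 0 of the 8. The second Egr site overlaps the Sp1 box. These matches describe letters in a window and show no binding.

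The other EGF receptor ligands were dim and gave differences near 0. Btc encodes betacellulin, and its main probe set was brighter than 23.0% of all probe sets. It ran from 3.77 to 3.85 in wild-type and from 3.55 to 4.10 in R6/2 mice. The difference was 0.00 ± 0.10 (limma adjusted p 0.980), with a 95% confidence interval from -0.22 to 0.21. The second Btc probe set, 1421161_at, was brighter than only 2.59% of probe sets and differed by 0.00 ± 0.07. Egf, the founding ligand of the family, was 4.41 to 4.49 in wild-type and 4.49 to 4.62 in R6/2 mice, a difference of 0.08 ± 0.06 (limma adjusted p 0.385, interval -0.05 to 0.20).

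The neuregulin genes did not pass. Nrg3 encodes a brain-enriched neuregulin that binds ErbB4. It was 5.93, 5.85, 5.08 and 5.68 in the wild-type mice and 5.93, 6.00, 6.51, 5.72 and 6.43 in the R6/2 mice. The groups overlapped, with wildtype_49 below all other mice and R62_105 highest. The difference was 0.48 ± 0.20 (limma adjusted p 0.127, interval 0.04 to 0.92). Without wildtype_49 it was 0.30 (limma adjusted p 0.280). Its second probe set gave 0.18 ± 0.15. Nrg1 encodes the neuregulin best known from myelination and synapse formation, and 1 probe set measured it. It lay within 4.86 to 4.87 in wild-type mice and was 4.88, 4.29, 4.71, 4.75 and 4.84 in the R6/2 mice. The value of R62_95 stood apart. The difference was -0.17 ± 0.11 (limma adjusted p 0.316, interval -0.41 to 0.07), and without R62_95 it was -0.070 (limma adjusted p 0.465).

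Among the receptors, the main probe set of Egfr hardly differed while another one fell. The main probe set, 1460420_a_at, was 6.65, 6.69, 6.62 and 6.69 in the wild-type mice and 6.55, 6.68, 6.67, 6.71 and 6.53 in the R6/2 mice. The difference was -0.03 ± 0.06 (limma adjusted p 0.762, interval -0.17 to 0.10). Probe set 1435888_at was 6.07, 6.41, 6.30 and 6.49 in the same wild-type mice and 5.96, 5.84, 5.88, 6.05 and 5.87 in the same R6/2 mice. It fell by 0.40 ± 0.09, to a ratio of 0.759 (limma adjusted p over all probe sets 0.0192, where 10.4% of probe sets passed), and the groups did not overlap (13.4% of all probe sets). The gap was small, between wildtype_46 (6.07) and R62_107 (6.05). Relative to the main probe set the shift was 0.37 (exact permutation p 0.00794, the smallest possible, adjusted 0.0476). The remaining 5 Egfr probe sets were below the median brightness of all probe sets and gave differences from -0.19 to 0.01, of which 0 passed (limma adjusted p 0.221 to 0.941), nor did any at an unadjusted p under 0.05. Whether these probe sets read different transcripts of Egfr was not analysed here.

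**Figure D2:**
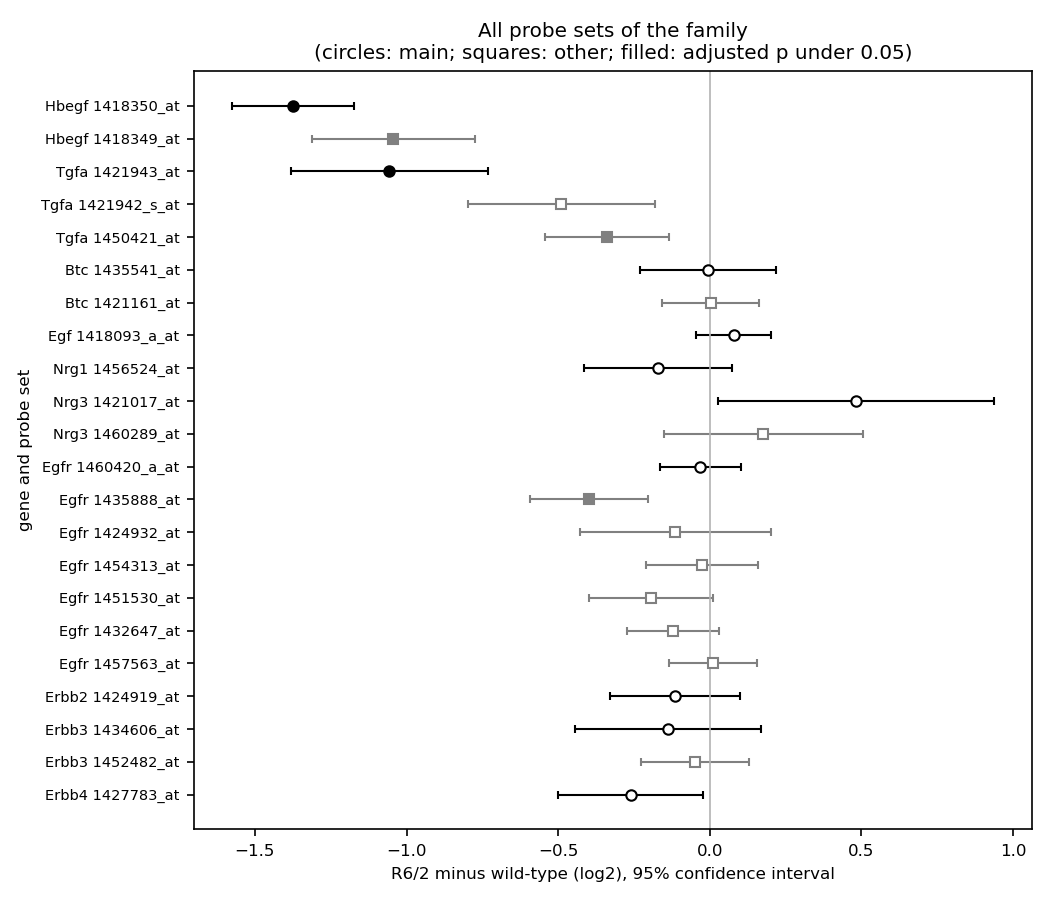
Difference between R6/2 and wild-type mice (horizontal axis, log2) with its 95% confidence interval for all 22 probe sets, ordered by gene. Circles are main probe sets, squares are other probe sets, and filled symbols passed at an adjusted p under 0.05 over all probe sets: both of Hbegf, 2 of 3 of Tgfa and 1 of 7 of Egfr.

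Erbb2, the partner receptor without a ligand, was 4.67 to 4.91 in wild-type and 4.43 to 4.91 in R6/2 mice, a difference of -0.12 ± 0.10 (limma adjusted p 0.451, interval -0.33 to 0.10). With single mice left out it ran from -0.18 (without R62_95) to -0.057 (without R62_109), and it was -0.072 without wildtype_49. Erbb4, the neuregulin receptor of interneurons, was measured by 1 probe set that was brighter than only 6.21% of probe sets. It was 3.42, 3.14, 3.55 and 3.14 in the wild-type mice and 3.04, 3.10, 3.28, 2.88 and 2.96 in the R6/2 mice. The groups overlapped through R62_105 alone. The difference was -0.26 ± 0.11 (limma adjusted p 0.122, interval -0.50 to -0.03). It passed with the choroid plexus and ependyma score as a covariate (-0.41 ± 0.08, limma adjusted p 0.0152). Erbb4 also passed when each array was centred on 6 housekeeping genes (-0.39, limma adjusted p 0.0435), as did Nrg1 (-0.30, limma adjusted p 0.0480). Under that centring the median over all genes was -0.15 in place of -0.02, and 4 family genes were lower. The 6 housekeeping genes averaged 0.13 higher in R6/2 than in wild-type mice, and 1 of them rose. Centring on them therefore lowers every difference by that amount.

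Erbb3, the neuregulin receptor of the oligodendrocyte lineage, was 7.02, 7.19, 7.35 and 7.07 in the wild-type mice and 6.90, 7.25, 6.84, 7.38 and 6.73 in the R6/2 mice. R62_107 was highest and R62_109 lowest of all 9. The difference was -0.14 ± 0.14 (limma adjusted p 0.528, interval -0.44 to 0.16). With single mice left out it ran from -0.23 (without R62_107) to -0.064 (without R62_109), and it was -0.074 without wildtype_49. The second Erbb3 probe set gave -0.05 ± 0.08. The SD was 0.15 among wild-type and 0.28 among R6/2 mice, both above the size of the difference.

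The levels were set beside marker scores, the mean log2 value of a marker list in each mouse. For 8 family genes and 6 lists whose genotypes overlapped, 48 relations across the 9 mice were computed. Erbb3 followed the score of 9 oligodendrocyte markers (Pearson r = 0.89, exact permutation p 0.00248, adjusted 0.0623; Spearman rho = 0.90, exact permutation p 0.00203, adjusted 0.0487). Without R62_107 and R62_109, which lay farthest from the median score, r was 0.80, and with the genotype means subtracted it was 0.91. That score was 10.03 to 10.60 in R6/2 and 10.32 to 10.57 in wild-type mice. Given the score as a covariate, the genotype difference of Erbb3 was 0.13 ± 0.09 (limma adjusted p 0.472). The relation was not particular to Erbb3: Btc (Pearson r = 0.72) and Egfr (r = 0.75) also rose with this score, whereas Nrg3 fell (r = -0.75).

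Nrg3 followed the score of 10 cortex projection neuron markers (Pearson r = 0.86, exact permutation p 0.00260, adjusted 0.0623; Spearman rho = 0.93, exact permutation p 0.000816, adjusted 0.0392). Without wildtype_49 and wildtype_66, farthest from the median, r was 0.91, and with the genotype means subtracted it was 0.76. This list comes from neighbouring cortex, and 4 of its 10 measured markers rose and 1 fell, beside 9.28% and 7.57% of all genes. Its score was 6.26 to 7.32 in wild-type and 6.97 to 7.89 in R6/2 mice. With the score as a covariate, the Nrg3 difference was 0.01 ± 0.19 (limma adjusted p 0.994). Erbb3 fell as the cortex score rose (Pearson r = -0.69, and -0.92 without wildtype_49 and wildtype_66). No Pearson correlation of the 48 passed after adjustment, and the rank correlations of the other 46 did not either.

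Hbegf and Tgfa were lower in R6/2 mice, and so was the marker list of spiny projection neurons, the principal striatal cell type. All 12 measured markers of this list fell, and their score was 11.60 to 11.92 in wild-type and 9.79 to 10.61 in R6/2 mice. In a bulk sample, fewer cells of a type and less RNA per cell cannot be told apart. Markers of other cells moved as well: 6 of 10 astrocyte markers fell (scores 9.25 to 9.49 against 8.96 to 9.15), 4 of 9 microglia markers fell (7.32 to 7.70 against 6.82 to 7.21) and 3 of 5 cholinergic interneuron markers fell (5.22 to 5.43 against 4.57 to 4.97). On scores that overlapped, 4 of 11 GABA interneuron, 3 of 9 oligodendrocyte and 1 of 10 endothelial and mural markers fell. Of all genes, 7.57% fell. Of these lists of other cells, only the oligodendrocyte score was used as a covariate. Both ligand genes passed in that fit, Hbegf at -1.29 (limma adjusted p 0.000624) and Tgfa at -0.89 (limma adjusted p 0.0125). The part of the remaining lists of other cells in the falls of the ligand genes was not tested. Since the genotypes do not overlap on the spiny neuron score or on either gene, no correlation was computed. With that score as a covariate Hbegf was -0.71 ± 0.18 (limma adjusted p 0.509) and Tgfa 0.01 ± 0.29 (limma adjusted p 0.998), and by limma 0 of all 18193 genes passed in that fit, with 1374 at an unadjusted p under 0.05. No R6/2 score reached the wild-type range, so this fit cannot tell genotype from score. With the cortex score as a covariate both ligand genes passed, Hbegf at -1.18 ± 0.10 (limma adjusted p 0.00158) and Tgfa at -0.81 ± 0.18 (limma adjusted p 0.0401). Both also passed without the 3 arrays highest in choroid plexus transcripts (wildtype_47, wildtype_66 and R62_107), at -1.36 and -1.08.

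**Figure D3:**
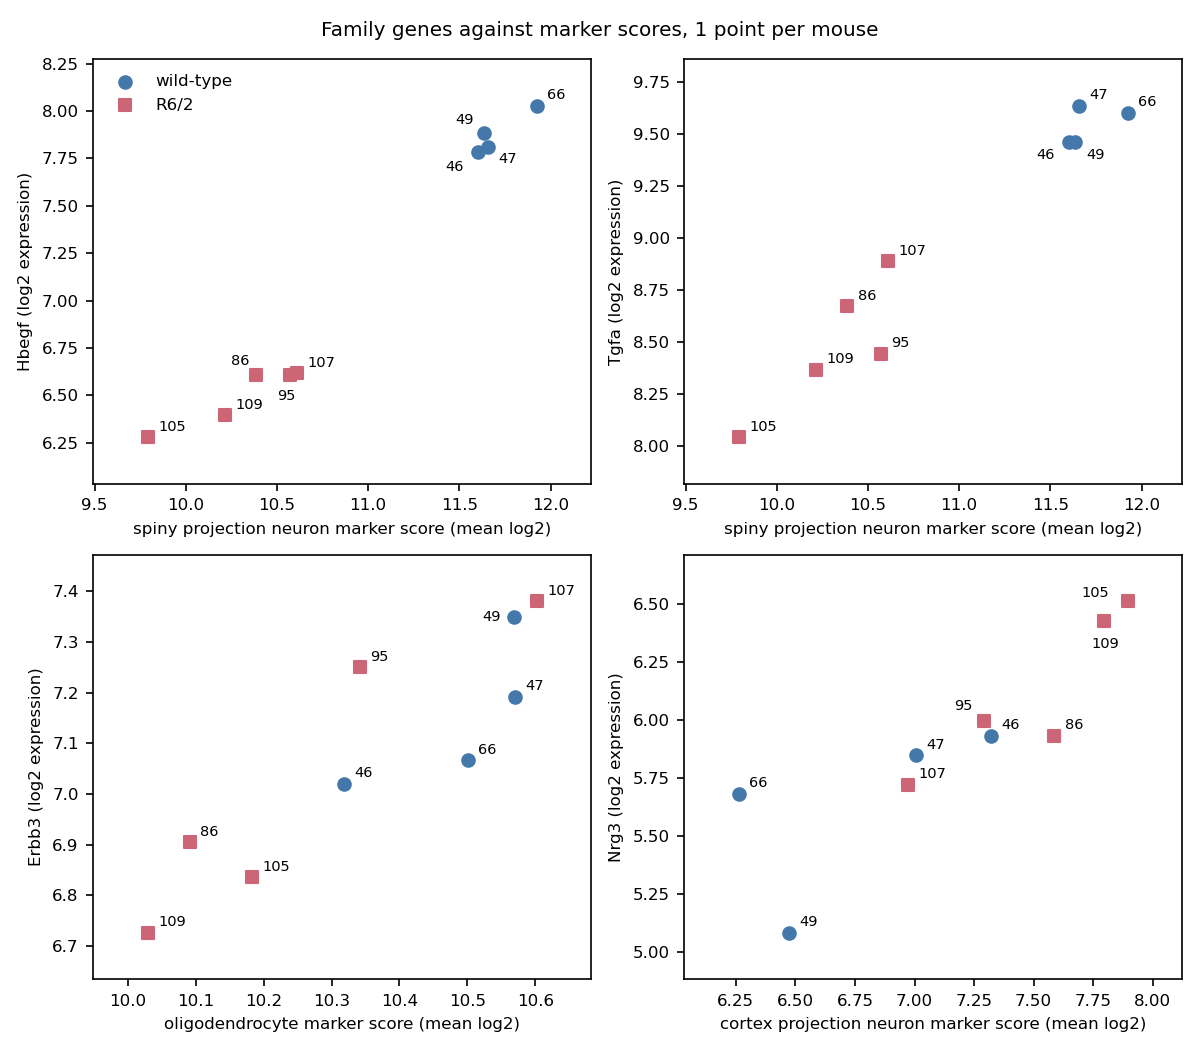
Log2 expression of Hbegf and Tgfa against the spiny projection neuron score, of Erbb3 against the oligodendrocyte score and of Nrg3 against the cortex projection neuron score, 1 point per mouse, labelled with the number in its name. The genotypes form separate groups for Hbegf and Tgfa, whereas they intermingle for Erbb3 and Nrg3, which rise with their scores across the 9 mice.

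After subtraction of the genotype means, the genes whose variation among the 9 mice was most like that of each fallen ligand were listed from the 9096 brighter genes. For Hbegf they were Foxp1, a striatal transcription factor (r = 0.98, difference -0.70), Rem2, a small GTPase (r = 0.97, difference -1.03), and Scn2b, a sodium channel subunit (r = 0.96, difference -0.53). Foxp1 is also among the spiny neuron markers. For Tgfa they were Ptprz1, a receptor phosphatase of glia (r = 0.94, difference -0.06, limma adjusted p 0.759), St8sia3, a sialyltransferase (r = 0.94, difference -1.64), and Pde7b, a phosphodiesterase (r = 0.93, difference -1.0). These are descriptions over 9 mice that share their arrays and normalization. They are the highest of 9096 correlations for each ligand, and the r that unrelated genes would reach by such a choice was not tested.

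Of 86 other measured genes of the pathway, 7 rose and 11 fell, 20.9% beside 16.9% of all genes, with a median difference of 0.05. Housekeeping centring turned this to 2 higher and 18 lower. With age as a covariate 0 passed by limma, and 12 had an unadjusted p under 0.05; with the spiny neuron score 0 passed, and 6 did so unadjusted. With the cortex score as a covariate 2 passed, Akt2 (-0.63 ± 0.12, limma adjusted p 0.0268) and Dlg4 (-0.68 ± 0.14, limma adjusted p 0.0313). Without the 3 arrays highest in choroid plexus transcripts 7 passed, and with the oligodendrocyte score as a covariate 9. In a fit of genes above the median level only, 19 of 68 pathway genes passed, beside 2710 of all 9096 such genes. The list shares below are set beside all genes of any brightness, and a share matched for brightness was not computed for them.

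The 4 other ligand genes measured, Nrg2, Epgn, Nrg4 and Ereg, gave differences from -0.23 to 0.02, and by limma 0 passed, also at an unadjusted p under 0.05. Of 10 genes of ligand-releasing and related membrane proteases and their inhibitor, 2 fell and 2 rose, 40% beside 16.9% of all genes. Rhbdl3, of the rhomboid proteases, fell from 8.23 to 7.17, by 1.05 ± 0.16 (limma adjusted p 0.00186), and Timp3, an inhibitor of ADAM proteases, by 0.36 ± 0.08 (limma adjusted p 0.00978). Bace1, the protease that cleaves neuregulin-1, rose by 0.29 ± 0.08 and Rhbdl1, another rhomboid protease, by 0.28 ± 0.08 (limma adjusted p 0.0358 and 0.0363). The call of Bace1 ended without any 1 of the wild-type mice, R62_86 or R62_105 (limma adjusted p 0.0573 to 0.0811). That of Rhbdl1 ended without any 1 of wildtype_46, wildtype_47, wildtype_66 or the R6/2 mice other than R62_107 (limma adjusted p 0.0606 to 0.0953). Bace1 also did not pass with the mean of its probe sets (0.17, limma adjusted p 0.0810) or with median centring (limma adjusted p 0.0519). Rhbdl1 did not pass with quantile normalization (limma adjusted p 0.0521) or with median centring (limma adjusted p 0.0701). With housekeeping centring Bace1 was 0.16 and Rhbdl1 0.15, and neither passed (limma adjusted p 0.305 and 0.331). Adam10 (0.17 ± 0.08) and Adam17 (-0.22 ± 0.11), the main sheddases of EGF-type ligands, did not pass; they were named after their values were seen.

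Of 18 adaptors and proximal effectors, 2 rose and 0 fell, 11.1% beside 16.9% of all genes, with a median of 0.11. Sos1, a Ras activator, rose by 0.42 ± 0.06 (limma adjusted p 0.00192) and Gab2, a docking protein, by 0.44 ± 0.10 (limma adjusted p 0.0131). With the mean of all probe sets neither passed, Sos1 at 0.14 (limma adjusted p 0.193) and Gab2 at 0.19 (limma adjusted p 0.127). Gab2 did not pass with housekeeping centring either (0.31, limma adjusted p 0.0660). Of 6 measured genes of the Ras and MAP kinase core, 0 passed by limma and 1 had an unadjusted p under 0.05, with differences from -0.15 to 0.24. Of 12 genes of the PI3 kinase and Akt core, 2 fell and 0 rose, 16.7% beside 16.9% of all genes. Akt2, a kinase of survival and insulin signalling, fell from 9.05 to 8.11, by 0.94 ± 0.13 (limma adjusted p 0.000973), and Pdpk1, which activates Akt, by 0.40 ± 0.06 (limma adjusted p 0.00211).

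Of 23 feedback and negative regulators, 3 fell and 1 rose, 17.4% beside 16.9% of all genes. Lrig1, which lowers ErbB receptor levels, fell by 0.48 ± 0.10 (limma adjusted p 0.00776), Spry2, an inhibitor of receptor tyrosine kinase signalling, by 0.44 ± 0.09 (limma adjusted p 0.00981) and Spred1, an inhibitor of Ras activation, by 0.56 ± 0.13 (limma adjusted p 0.0142). Cblb, a ubiquitin ligase of activated receptors, rose by 0.36 ± 0.08 (limma adjusted p 0.00976), but did not pass with housekeeping centring (0.23, limma adjusted p 0.130). With the mean of its probe sets Lrig1 was -0.30 (limma adjusted p 0.0301). Spry2 and Spred1 did not pass with the mean of their probe sets (-0.27 and -0.36, limma adjusted p 0.0759 and 0.0532). Of 13 genes of proteins that bind ErbB4 or act with it at synapses, 4 fell and 2 rose, 46.2% beside 16.9% of all genes. Dlg4, the postsynaptic scaffold PSD-95, fell by 0.63 ± 0.10 (limma adjusted p 0.00198), its relative Dlg2 by 0.54 ± 0.12 (limma adjusted p 0.0111) and Erbin, named for its binding of ErbB2, by 0.44 ± 0.08 (limma adjusted p 0.00466). Mpdz, a scaffold of many PDZ domains, rose by 0.44 ± 0.08 (limma adjusted p 0.00399). Erbin did not pass with the mean of its probe sets (-0.16, limma adjusted p 0.296).

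**Figure D4:**
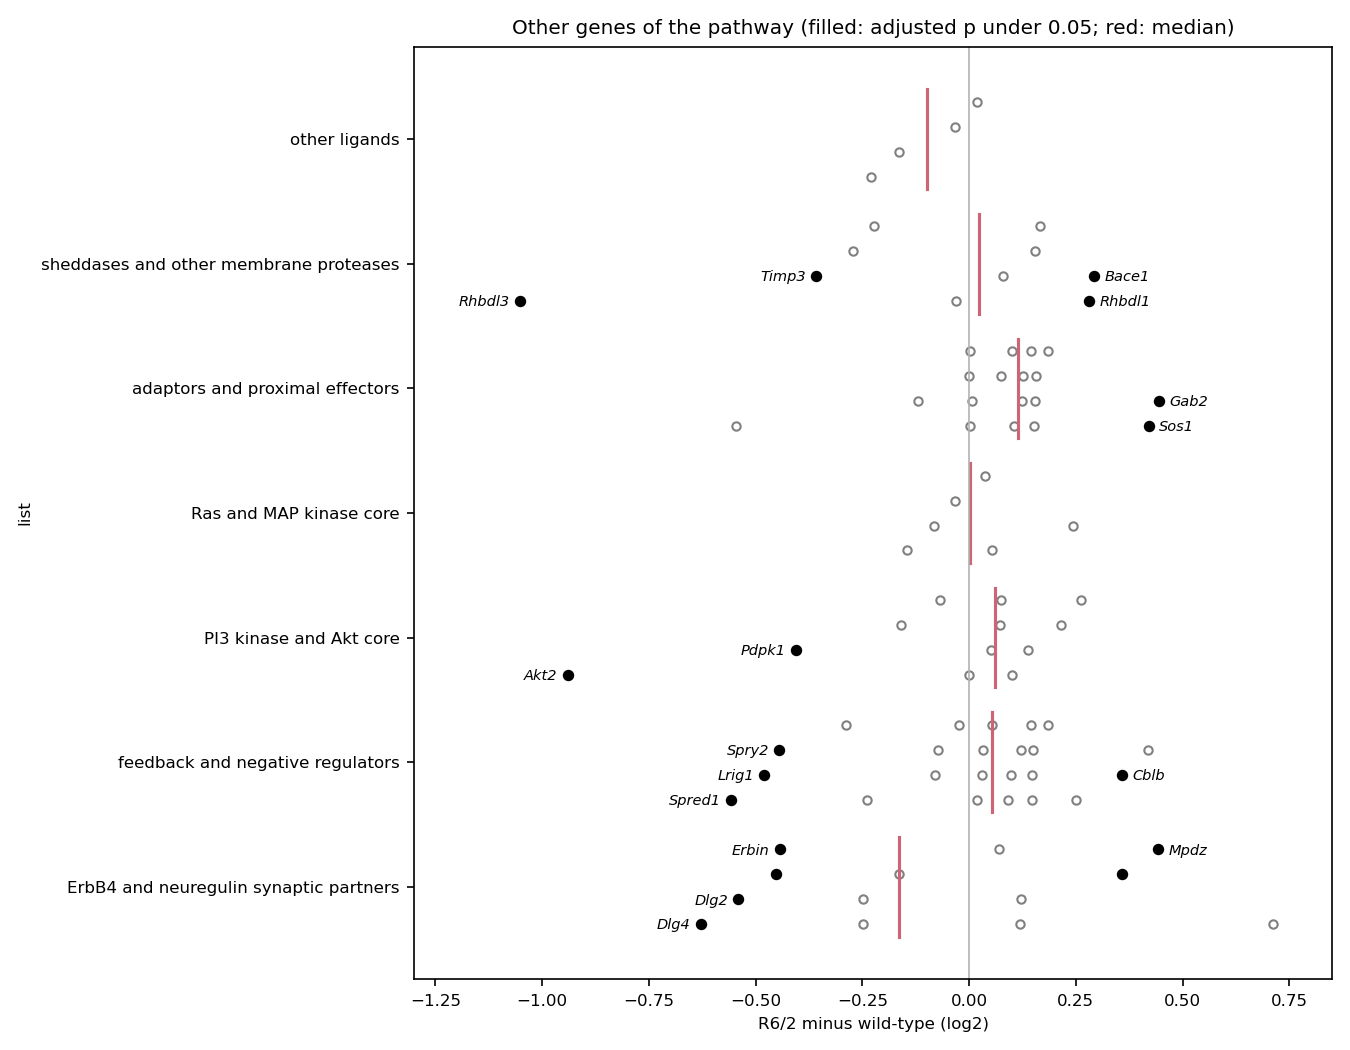
Difference between R6/2 and wild-type mice (horizontal axis, log2) for 86 other genes of the pathway in 7 lists, with 1 point per gene, filled where the limma adjusted p was under 0.05, and a red line at each list's median. The lowest values belong to Rhbdl3 (-1.05) and Akt2 (-0.94), and most genes lie near 0.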

How the data were processed

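Striatal RNA of 9 mice was labelled with biotin during in vitro transcription and hybridised to 1 array each, according to the labels' protocols. The deposited values are log2 expression; the submitters' processing notes name RMA and affy, without versions. RMA as usually run gives all arrays nearly the same distribution, and array medians lay between 5.37 and 5.45, so a change in total RNA per cell could not be seen. The number of arrays limits the precision.

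Of the probe sets, 64 controls were left out, 34945 named exactly 1 gene, 932 named several and 9160 were not listed. Symbols were updated to RefSeq by gene identifier where these matched (34741).

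Genotypes were compared with limma 3.58.1 (lmFit, eBayes) in R 4.3.3. Probe sets were compared with exact permutation tests in R, and relations to scores were tested by exact permutation in Python 3.11.15. The limma p-values set a genotype difference against the spread between these mice, with a spread estimate that draws on all genes. The exact tests reassign values among the mice. Alternatives changed the probe set rule, the filter, the scaling, the fit, covariates (age and 4 marker scores), the threshold and the mice included. Named genes were the family, up to 4 called genes per pathway list with the smallest p, and the 3 genes most like each called member. Members and lists were chosen with earlier results of these data known.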

Additional observations from a re-analysis of the deposited data

Results flagged for a closer look

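In 68 groups of 4 or 5 mice (22 probe sets and 12 scores, each in 2 genotypes), the most distant mouse was set against the rest by the gap to its neighbour over the range of the group, of which chance would mark about 1 in 20. In 7 groups this share was above the limit of 0.829 for 4 mice or 0.71 for 5. Nrg1 in R62_95 was 4.29, with a share of 0.712. For Tgfa probe set 1421942_s_at the same mouse was lowest at 5.32 (0.773). Btc in wildtype_47 was 3.85 (0.833); the other wild-type mice were 3.77 to 3.78. R62_86 stood apart for 3 dim probe sets, Btc 1421161_at at 3.22 (0.922), Egfr 1432647_at at 4.12 (0.766) and Egfr 1457563_at at 3.08, where the other 4 R6/2 mice had identical values and the share was 1.0. The spiny projection neuron score of wildtype_66 was 11.92, above the other wild-type mice (0.841), and this mouse also had the highest Hbegf value, 8.03.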

How the results depend on the processing

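With each mouse left out in turn, 2 family genes were called each time, and 15 to 20 pathway genes. Hbegf then lay between -1.41 and -1.32 and Tgfa between -1.16 and -0.95. The shift between the Tgfa probe sets ran from -0.76 to -0.64 and that between the Egfr probe sets from 0.32 to 0.44. Hbegf passed in 22 of 23 alternatives (not with the spiny score) and Tgfa in 21 (not with the spiny score or age).

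Family genes called were 4 with housekeeping centring, 1 with age and, by limma, 0 with the spiny score (2 at an unadjusted p under 0.05). Pathway genes called by limma were 0 with age (12 unadjusted), 0 with the spiny score (6 unadjusted), 2 with the cortex score, 9 with the oligodendrocyte score, 7 without the 3 choroid-rich arrays and 11 at a threshold of 0.01. Over all genes 3066 passed (1688 higher, 1378 lower), against 30 with age, 499 with the cortex score, 1060 with the oligodendrocyte score, 2020 with the choroid plexus score, 882 without the 3 arrays and 1257 at 0.01; housekeeping centring gave 483 higher and 2567 lower.

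These differences changed sign. Btc was 0.024 with quantile normalization, 0.12 with the cortex, 0.075 with the choroid plexus, 0.24 with the spiny and 0.17 with the oligodendrocyte score, and -0.082 to 0.054 with single mice left out. Egf was -0.052 with housekeeping centring and Nrg1 0.013 with age. With the cortex score Egfr was 0.011, Erbb2 0.039 and Erbb3 0.14, and with the choroid plexus score Egfr was 0.0049. With the spiny score Tgfa was 0.0076, Nrg3 -0.60, Egfr 0.045, Erbb2 0.15, Erbb3 0.58, Rhbdl3 0.36 and Erbin 0.036. Genotype and spiny score cannot be told apart in these mice. With the oligodendrocyte score Egfr was 0.031 and Erbb3 0.13. The cause was not tested. No paired analysis was possible because the genotypes share no mouse numbers. The probe sets of Btc, Egf, Nrg1, Erbb2 and Erbb4 were below the median brightness of all probe sets.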
